A study of Mus musculus with 189 samples.

Results

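Nsd1, Setd2 and Ash1l encode histone methyltransferases that act on lysine 36 of histone H3 (H3K36). These 3 genes were chosen by name for their enzymatic function, not for any measured value, though with earlier results of these data known. They belong to the 156 genes retained from a panel of chromatin modifiers. Their transcripts were measured by microfluidic quantitative PCR in mouse oocytes and preimplantation embryos, 58 units in all. Oocytes and embryos came from superovulated F1 females of C57BL/6 and DBA/2 mice, and the embryos were sired by C57BL6 males and cultured in KSOMaa medium at low oxygen. No group carried a genetic change or a treatment beyond superovulation, so stage was the compared variable. The groups were 11 oocytes at metaphase of the second meiotic division (MII), the stage at which eggs are ovulated, 14 zygotes, 21 samples of 8 units of 2-cell embryos, 7 samples of 3 3-cell embryos, 12 samples of 6 4-cell embryos, 27 samples of 7 8-cell embryos, 26 samples of 2 16-cell embryos (morulae) and 50 samples of 7 32-cell embryos (blastocysts). The 2-cell, 4-cell and 8-cell groups each included 3 whole embryos among their samples. At the 2-cell stage, 11 single blastomeres whose embryos are not named were counted together as 1 unit. Blastomere numbers in the sample titles run past 16 in both 16-cell embryos, so that stage name is nominal. Single cells made up 20 samples of the 16-cell and 32 of the 32-cell stage, and the remaining late samples pooled a few sister blastomeres.

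H3K36 methylation is laid down along transcribed genes. Setd2 is the enzyme responsible for most of the trimethylated form and travels with elongating RNA polymerase, whereas Nsd1 and Ash1l place the dimethylated form, Nsd1 over genes and intergenic regions and Ash1l near the start of developmental genes as a Trithorax group protein that counteracts Polycomb silencing. In oocytes, H3K36 methylation by Setd2 is known to guide the deposition of DNA methylation through the PWWP domain of the de novo DNA methyltransferases.

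The measured value is the cycle threshold (Ct), the PCR cycle at which a product is detected, so that a lower Ct means more transcript. A Ct of 30 marks a transcript that was not detected. Expression is given below as 30 minus the Ct, less the mean of the same quantity for the control genes Hnrnpr, Ssu72 and Ube2e1, which is a log2 scale on which 1 unit is taken as a doubling. Levels of different genes on this scale also depend on the amplification of each assay, so that differences are compared between genes and levels are not. qPCR gives no read depth. The mean Ct of the control genes, which describes the amount of template, rose from 12.9 ± 0.326 (SD) over the 11 MII oocytes to 17.5 ± 1.25 (SD) over the 50 samples of the 32-cell stage, so that late blastomeres were measured nearer the detection limit. The median number of undetected genes per sample lay between 12 in MII oocytes and 24.5 at the 32-cell stage. Of the oocyte markers, ZP3 was detected in 11 of 11 and Dazl in 11 of 11 MII oocytes, and in 20 and 8 of 50 samples of the 32-cell stage. Of the blastocyst markers, Nanog and Krt8 were detected in all 50 of these and Sox2 in 40, Cdx2 in 34 and Gata3 in 26 of them. Sox2, Cdx2, Gata3 and Krt8 were each also detected in 11 of 11 MII oocytes, so their detection does not mark the stage. Nanog was detected in 0 of 11. Several samples stood apart. Zygotes 1, 7 and 8 and MII oocyte 9 had the lowest control Ct of their groups, between 11.9 and 12.4, and the lowest normalized Nsd1 and Setd2 of the samples in which Setd2 was detected. Setd2 was not detected in zygote 4, which had Nsd1 at 4.24 and Ash1l at 1.08. The main stage differences of Setd2 are given with and without zygote 4. For Nsd1 and Ash1l, stage differences that changed direction or call without zygotes 1, 7 and 8 and MII oocyte 9 are given both ways. Setd2 was not tested with these samples and zygote 4 left out together.

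All 3 transcripts were present at every stage. Nsd1 and Ash1l were detected in every sample and Setd2 in all but zygote 4. Relative to the control genes, Nsd1 followed a course with a high level in the oocyte, a lowest level at the 8-cell stage and a partial recovery afterwards, and Ash1l took the same course over a smaller range. Setd2 was highest at the 2-cell stage and lower from the 8-cell stage onwards. The plot of the level by sample shows each of these courses.

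**Figure D1:**
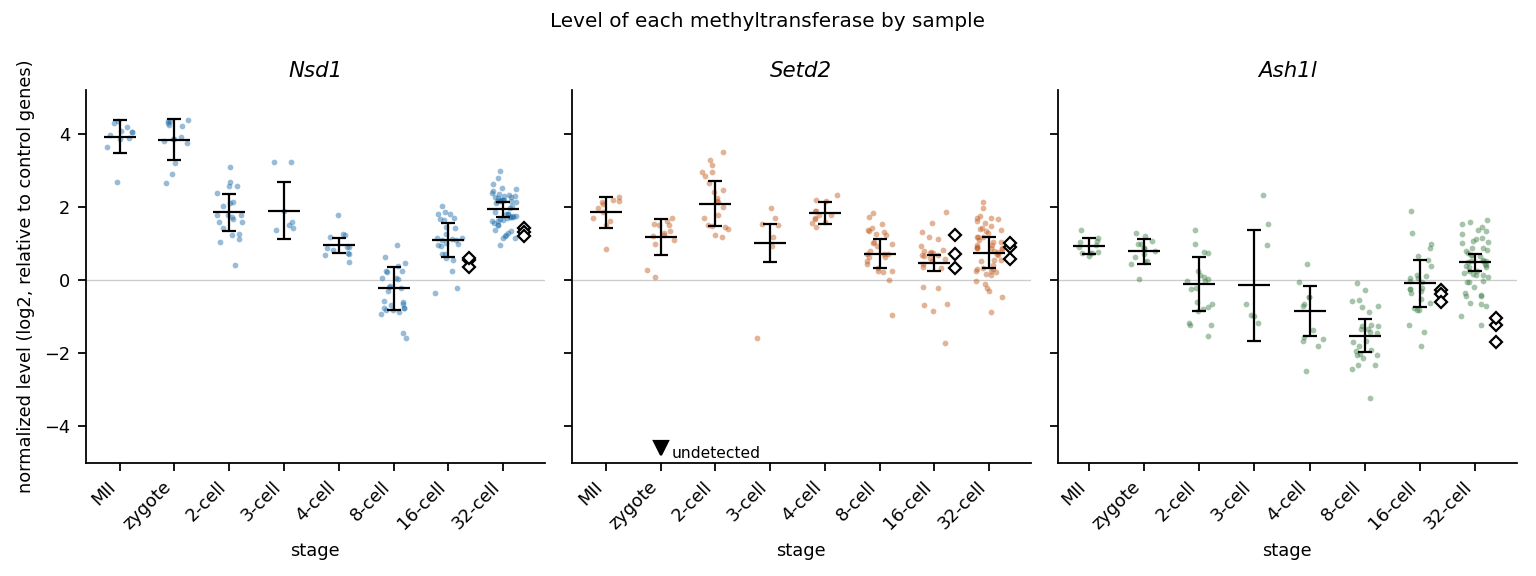
Normalized level (log2, vertical axis) of each of the 3 methyltransferases by stage (horizontal axis). Coloured points are samples, bars are means ± SD over oocytes or embryos with the undetected zygote left out, open diamonds are the whole 16- and 32-cell embryos outside the main set, and the triangle is the zygote without detected Setd2. Nsd1 falls from near 4 in MII oocytes and zygotes to below 0 at the 8-cell stage, and the diamonds of Ash1l at the 32-cell stage lie below its blastomere means.

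Nsd1 showed the largest range over the stages. In MII oocytes its normalized level lay between 2.70 and 4.36 with a median of 4.04 (n = 11), and in zygotes between 2.66 and 4.39 with a median of 3.90 (n = 14). The samples of 2-cell embryos ran from 0.40 to 3.09 with a median of 1.77 (n = 21), those of 3-cell embryos from 1.38 to 3.24 with a median of 1.60 (n = 7), and those of 4-cell embryos from 0.49 to 1.77 with a median of 0.88 (n = 12). Zygotes overlapped with 2-cell samples only through zygotes 7 and 8, and no 4-cell sample reached any oocyte or zygote. At the 8-cell stage Nsd1 lay between −1.59 and 0.95 with a median of −0.31 (n = 27), at the 16-cell stage between −0.36 and 2.02 with a median of 1.11 (n = 26), and at the 32-cell stage between 0.96 and 2.98 with a median of 1.92 (n = 50). All 50 samples of the 32-cell stage were therefore above all 27 of the 8-cell stage.

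Over oocytes and embryos, the mean Nsd1 level was 3.92 ± 0.45 (SD, n = 11) in MII oocytes, 3.85 ± 0.56 (SD, n = 14) in zygotes, 1.85 ± 0.50 (SD, n = 8) at the 2-cell, 1.89 ± 0.78 (SD, n = 3) at the 3-cell, 0.95 ± 0.21 (SD, n = 6) at the 4-cell, −0.23 ± 0.59 (SD, n = 7) at the 8-cell, 1.09 ± 0.47 (SD, n = 2) at the 16-cell and 1.93 ± 0.21 (SD, n = 7) at the 32-cell stage. Ordered by these means, MII oocytes and zygotes came first and did not differ beyond their spread (difference 0.07, limma adjusted p = 0.885), and zygotes exceeded the next stage, the 32-cell stage, by 1.91 (adjusted p = 9.12e-11). The 32-cell, 3-cell, 2-cell, 16-cell and 4-cell stages followed, and no neighbours in this run differed past the threshold (adjusted p of at least 0.101). The 8-cell stage was last, 1.18 below the 4-cell stage (adjusted p = 0.000288).

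The maternal-to-zygotic transition, in which oocyte transcripts are cleared while the embryo begins its own transcription, was examined by comparing successive stages. From MII oocyte to zygote, neither Nsd1 nor Ash1l passed the threshold, in a comparison that called 1.92% of the 156 genes. From zygote to 2-cell embryo, Nsd1 fell by 1.995 ± 0.22 (SE, adjusted p = 1.43e-11), a 3.99-fold decrease, and Ash1l fell by 0.89 ± 0.24 (SE, adjusted p = 0.000923), where 68.6% of all genes were called. Between 2-cell and 4-cell embryos Nsd1 fell again by 0.90 ± 0.27 (SE, adjusted p = 0.00873), and Ash1l by 0.74 ± 0.29 (SE, adjusted p = 0.0450), beside 32.7% of genes called. From the 4-cell to the 8-cell stage only Nsd1 of the 3 passed in this fit (difference −1.18 ± 0.27, SE), with 49.4% of genes called. Without normalization its difference was −0.85 (adjusted p = 0.203), which did not pass. Setd2 differed by −1.11 over this step and passed with undetected values missing (adjusted p = 0.000273), as described below. The Nsd1 call from 2-cell to 4-cell was lost in single cells only (−0.83, adjusted p = 0.110) and in whole embryos only (−0.73, adjusted p = 0.381), and the difference was 0.38 (adjusted p = 0.546) without normalization. The Ash1l call over the same step was lost with sample medians (adjusted p = 0.0668), in single cells only (adjusted p = 0.0711), in whole embryos only (adjusted p = 0.360), with late whole embryos added (adjusted p = 0.0914) and with left-out samples added (adjusted p = 0.0526), and the difference was 0.54 (adjusted p = 0.470) without normalization. The Ash1l calls also depended on the control genes, with −0.47 (adjusted p = 0.122) from zygote to 2-cell without Hnrnpr and −0.55 (adjusted p = 0.133) from 2-cell to 4-cell without Ube2e1. Without zygotes 1, 7 and 8 and MII oocyte 9 the step from zygote to 2-cell was −2.25 for Nsd1 (adjusted p = 2.97e-15) and −0.98 for Ash1l (adjusted p = 0.000616).

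Ash1l had narrow groups before cleavage and wide ones after. Its level ran from 0.65 to 1.36 with a median of 0.91 in MII oocytes, and from 0.02 to 1.30 with a median of 0.83 in zygotes. Samples of 2-cell embryos ran from −1.55 to 1.36 with a median of −0.21, those of 3-cell embryos from −1.17 to 2.34 with a median of −0.65, and those of 4-cell embryos from −2.50 to 0.44 with a median of −1.04. Each of the cleavage groups overlapped with the zygotes. At the 8-cell stage the values ran from −3.23 to −0.08 with a median of −1.46, all below 0 and below every oocyte and zygote. They ran from −1.80 to 1.90 with a median of −0.13 in 16-cell samples, and from −1.23 to 1.65 with a median of 0.46 in 32-cell samples, so that both late groups overlapped with the 8-cell and with the oocyte samples.

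Means of Ash1l over oocytes and embryos were 0.92 ± 0.22 (SD, n = 11) in MII oocytes, 0.78 ± 0.34 (SD, n = 14) in zygotes, −0.11 ± 0.73 (SD, n = 8) at the 2-cell, −0.14 ± 1.52 (SD, n = 3) at the 3-cell, −0.86 ± 0.68 (SD, n = 6) at the 4-cell, −1.52 ± 0.45 (SD, n = 7) at the 8-cell, −0.09 ± 0.65 (SD, n = 2) at the 16-cell and 0.49 ± 0.24 (SD, n = 7) at the 32-cell stage. Ordered from MII oocyte and zygote through 32-cell, 16-cell, 2-cell, 3-cell and 4-cell to 8-cell, no neighbours differed past the threshold (adjusted p of at least 0.0644). The wide 3-cell group came from 1 embryo at 1.61 beside others at −0.86 and −1.17.

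Setd2 took another course. Its level ran from 0.84 to 2.28 with a median of 1.96 in MII oocytes, and from 0.09 to 1.70 with a median of 1.30 in the 13 zygotes in which it was detected. Samples of 2-cell embryos ran from 1.18 to 3.504 with a median of 2.16, those of 3-cell embryos from −1.59 to 1.98 with a median of 1.51, and those of 4-cell embryos from 1.45 to 2.32 with a median of 1.79. The 4-cell samples were tightly grouped inside the range of the 2-cell samples. Later values ran from −0.95 to 1.82 with a median of 0.79 in 8-cell samples, from −1.71 to 1.85 with a median of 0.67 in 16-cell samples and from −0.87 to 2.14 with a median of 0.88 in 32-cell samples. These 3 groups overlapped with one another almost entirely.

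Zygote 4 bore on every test of Setd2, because its undetected value of −17.04 on this scale widened the SD of the zygotes to 4.89 and with it the error of the whole fit. With that value kept, Setd2 did not pass the threshold in any step: the differences were −1.97 ± 1.00 (SE, adjusted p = 0.322) from MII oocyte to zygote, 2.20 ± 1.10 (SE, adjusted p = 0.0692) from zygote to 2-cell and −1.11 ± 1.38 (SE, adjusted p = 0.526) from 4-cell to 8-cell. With undetected values treated as missing, Setd2 fell by 0.67 ± 0.19 (SE, adjusted p = 0.0213) from MII oocyte to zygote, where 5.41% of genes were called, and rose by 0.90 ± 0.21 (SE, adjusted p = 0.000142) from zygote to 2-cell, where 79.9% were. It then fell by 1.11 ± 0.26 (SE, adjusted p = 0.000273) from 4-cell to 8-cell, where 53.3% were called. In this fit the stages ordered as 2-cell (2.08), MII oocyte (1.85), 4-cell (1.83), zygote (1.18), 3-cell (1.01), 32-cell (0.75), 8-cell (0.72) and 16-cell (0.47), and of these neighbours only the 4-cell stage and zygotes differed past the threshold (difference 0.65, adjusted p = 0.00908). Whether the missing value of zygote 4 was a failed reaction was not tested. The 3 lower zygotes and MII oocyte 9 named above were left out only with zygote 4 kept. Setd2 then differed by −2.22 (adjusted p = 0.484) from MII oocyte to zygote and by 2.36 (adjusted p = 0.0766) from zygote to 2-cell. The Setd2 calls with undetected values missing were not tested without these samples.

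**Figure D2:**
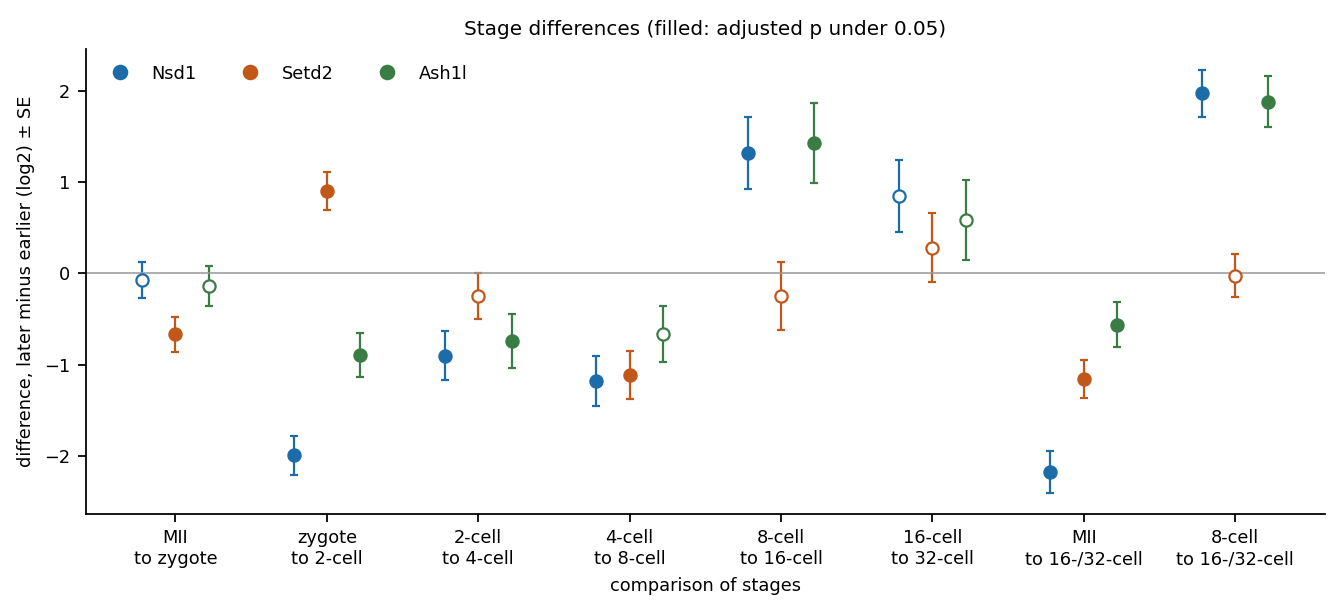
Differences between stages (log2, later minus earlier, vertical axis) for the 3 genes, as limma estimates ± SE over oocytes and embryos, with undetected values treated as missing for Setd2. Filled points passed an adjusted p under 0.05. From zygote to 2-cell Setd2 lies above 0 and the other two lie below, and from the 8-cell to the 16-/32-cell stages Nsd1 and Ash1l lie near 2 and Setd2 near 0.

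The late stages were compared with the oocyte and with the 8-cell embryo, the second comparison having been added after the values were seen. From MII oocytes to 16- and 32-cell embryos as 1 group, Nsd1 fell by 2.17 ± 0.23 (SE, adjusted p = 1.84e-12), a 4.51-fold decrease, and Ash1l by 0.56 ± 0.25 (SE, adjusted p = 0.0322), in a comparison that called 84.0% of genes. Setd2 differed by −1.16 ± 1.11 (SE, adjusted p = 0.322), and by the same −1.16 with an SE of 0.21 (adjusted p = 1.47e-06) with undetected values missing, where 85.5% of genes were called. The call on Ash1l was lost without Ssu72 among the control genes (−0.08, adjusted p = 0.789) and without zygotes 1, 7 and 8 and MII oocyte 9 (−0.52, adjusted p = 0.0565).

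From the 8-cell embryo to the 16- and 32-cell embryos, Nsd1 rose by 1.97 ± 0.26 (SE, adjusted p = 5.06e-09) and Ash1l by 1.88 ± 0.28 (SE, adjusted p = 8.92e-08), beside 59.6% of genes called. Setd2 differed by −0.03 ± 1.24 (SE, adjusted p = 0.981), and by −0.03 ± 0.23 with undetected values missing. The single steps were 1.32 ± 0.39 (SE, adjusted p = 0.0116) for Nsd1 and 1.43 ± 0.44 (SE, adjusted p = 0.0136) for Ash1l from the 8-cell to the 16-cell stage, with 28.2% of genes called. They rest on 2 16-cell embryos, and without the second of these neither passed (0.98 with adjusted p = 0.245 and 0.97 with adjusted p = 0.335). From the 16-cell to the 32-cell stage none of the 3 passed in the main fit, in a comparison that called 10.9% of genes. Nsd1 passed without Ssu72 among the control genes (1.18, adjusted p = 0.0412) and with late whole embryos added (1.01, adjusted p = 0.00413). It differed by −1.13 (adjusted p = 0.177) without normalization and by −0.32 (adjusted p = 0.616) on the deposited normalized values. Ash1l differed by 0.58 in the main fit and by −0.91 (adjusted p = 0.0286) in whole embryos only.

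The direction of these late differences depended on the genes used as controls. The deposited normalized values are relative to Gapdh, Hspa8 and Lmnb1 in place of Hnrnpr, Ssu72 and Ube2e1, and on them Nsd1 differed by −0.80 (adjusted p = 0.00992) and Ash1l by −0.90 (adjusted p = 0.00511) from the 8-cell to the 16- and 32-cell embryos. On that scale the median of all 156 genes moved by −2.06 in this comparison, against 0.71 relative to Hnrnpr, Ssu72 and Ube2e1. Setd2 differed by −2.81 (adjusted p = 0.0410) on it and by −2.92 (adjusted p = 0.0368) without normalization, both past the threshold, and by −0.03 relative to Hnrnpr, Ssu72 and Ube2e1. A difference from the median gene does not involve the control genes, and by that measure Nsd1 was higher in late embryos by 1.26, Ash1l by 1.16, and Setd2 lower by 0.74. From MII oocytes to 16- and 32-cell embryos the corresponding values were −1.82 for Nsd1, −0.81 for Setd2 and −0.21 for Ash1l, all below the median gene. The late samples in both comparisons were blastomere samples. In whole embryos from the 8-cell to the 32-cell stage the median gene moved by 0.07 on the normalized scale. Nsd1 moved by 1.38, Ash1l by 0.14 and Setd2 by 0.34 there. From whole 8-cell to 16-cell embryos the median gene moved by 0.37, Nsd1 by 0.56, Ash1l by 1.04 and Setd2 by 0.27.

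The members were next compared with each other, which needs no control genes. Relative to Setd2, Nsd1 fell by 4.20 ± 1.19 (SE, adjusted p = 0.00291) from zygote to 2-cell, where 58.7% of genes were called relative to Setd2, and by 2.86 ± 0.20 (SE, adjusted p = 3.73e-19) with undetected values missing. Relative to Ash1l, Nsd1 fell by 1.61 ± 0.22 (SE, adjusted p = 3.86e-09) from MII oocytes to the 16- and 32-cell embryos, where 80.6% of genes were called. From the 8-cell to the 16- and 32-cell embryos, Nsd1 rose relative to Setd2 by 2.002 ± 0.22 (SE, adjusted p = 6.03e-11) and Ash1l by 1.91 ± 0.32 (SE, adjusted p = 9.57e-07) with undetected values missing, beside 62.9% of genes called. With zygote 4 kept, neither passed: Nsd1 relative to Setd2 had the same size and an SE of 1.34 (adjusted p = 0.501), and Setd2 relative to Ash1l differed by −1.91 ± 1.28 (SE, adjusted p = 0.195). Nsd1 relative to Ash1l moved by 0.09 ± 0.25 (SE, adjusted p = 0.776) over the same stages. From the 4-cell to the 8-cell embryo, Nsd1 relative to Setd2 moved by −0.06 ± 0.24 (SE, adjusted p = 0.836) with undetected values missing. From the 8-cell embryo onwards Nsd1 and Ash1l thus rose relative to Setd2 with zygote 4 left out. All late samples in that fit were blastomere samples. In whole 8-cell to 32-cell embryos, 30 minus Ct changed by 1.89 for Nsd1, 0.65 for Ash1l and 0.85 for Setd2. In whole 8-cell to 16-cell embryos it changed by 2.97, 3.46 and 2.68 in the same order. The median gene changed by 0.58 from whole 8-cell to 32-cell embryos and by 2.79 from whole 8-cell to 16-cell embryos. The change of Ash1l relative to Setd2 was not tested in whole embryos. A step into the 8-cell stage that sets Nsd1 apart from Setd2 was not detected.

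Whole oocytes and embryos show how much transcript an embryo held in total, without normalization. The 3 whole embryos each of the 16- and 32-cell stages did not enter the stage comparisons above. A value of a whole embryo combines the number of its cells and the amount in each. All 3 transcripts were detected in every single blastomere measured, from the 2-cell stage onwards. The unnormalized 30 minus Ct of Nsd1 lay between 20.1 and 21.3 with a median of 21.1 in MII oocytes and between 20.5 and 21.5 with a median of 20.8 in zygotes. It was 16.5, 17.3 and 17.7 in the 3 whole 2-cell embryos, 16.7, 17.0 and 17.0 in the 4-cell, 16.6, 16.7 and 17.0 in the 8-cell, 18.7, 20.2 and 20.4 in the 16-cell and 17.9, 18.9 and 19.22 in the 32-cell embryos. No whole embryo of the 2-, 4- or 8-cell stage overlapped with oocytes or zygotes. The mean of the control genes was 15.5 in whole 2-cell, 15.9 in 4-cell, 16.8 in 8-cell, 19.3 in 16-cell and 17.4 in 32-cell embryos, so that the 16-cell embryos were high for the members and for the controls alike. The part of differing input or reaction in that rise was not tested.

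From zygote to whole 2-cell embryo, Nsd1 fell by 3.72 ± 0.29 (SE, adjusted p = 2.53e-13) and Ash1l by 2.17 ± 0.31 (SE, adjusted p = 9.38e-08) per embryo, in a comparison that called 77.6% of genes. The 3 whole 2-cell embryos held Setd2 at 16.1, 17.6 and 18.002, beside a zygote median of 18.2. Setd2 differed by 0.28 ± 1.92 (SE, adjusted p = 0.916) with zygote 4 kept. With undetected values missing, where 85.8% of genes were called, Setd2 fell by 1.03 ± 0.31 (SE, adjusted p = 0.00312). The median gene moved by −1.80 in that fit. The third 2-cell embryo, which held the 16.1, stood apart with a control level of 13.9 beside 16.2 and 16.3 in the others, and without it Setd2 differed by −0.47 ± 0.33 (SE, adjusted p = 0.192), which did not pass. Without it Nsd1 still fell by 3.39 (adjusted p = 1.06e-10) and Ash1l by 1.99 (adjusted p = 1.10e-05), and of the control genes Ssu72 fell by 1.15 (adjusted p = 0.00230) and Ube2e1 by 1.34 (adjusted p = 0.0165) while Hnrnpr differed by 0.03 (adjusted p = 0.959). No rise of Setd2 per embryo passed the threshold over this step.

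None of the 3 passed the threshold between whole 2-cell and 8-cell embryos. From 2-cell to 8-cell embryos the change per embryo was −0.41 ± 0.37 (SE, adjusted p = 0.408) for Nsd1, −0.30 ± 0.40 (SE, adjusted p = 0.615) for Ash1l and 0.11 ± 0.40 (SE, adjusted p = 0.850) for Setd2, the last with undetected values missing, in a comparison that called 38.5% of genes. Over the same step the control genes Ssu72 and Ube2e1 rose by 2.04 (adjusted p = 0.000241) and 1.85 (adjusted p = 0.0243), and Hnrnpr differed by 0.20 (adjusted p = 0.835). The median gene moved by 0.60. Without the third 2-cell embryo the change was −0.74 (adjusted p = 0.179) for Nsd1, and 1.31 (adjusted p = 0.0109) for Ssu72 and 0.81 (adjusted p = 0.350) for Ube2e1. From whole 2-cell to 32-cell embryos Nsd1 rose by 1.48 ± 0.37 (SE, adjusted p = 0.000880) per embryo, or by 1.15 (adjusted p = 0.0155) without the third 2-cell embryo, where 53.8% of genes were called, and Ash1l differed by 0.35 ± 0.40 (SE, adjusted p = 0.470). From MII oocytes to whole 32-cell embryos Nsd1 fell by 2.33 ± 0.30 (SE, adjusted p = 1.30e-08) and Ash1l by 1.97 ± 0.32 (SE, adjusted p = 9.29e-07), beside 83.3% of genes. The median gene moved by 1.14 from whole 2-cell to 32-cell embryos and by −0.48 from MII oocytes to whole 32-cell embryos.

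**Figure D3:**
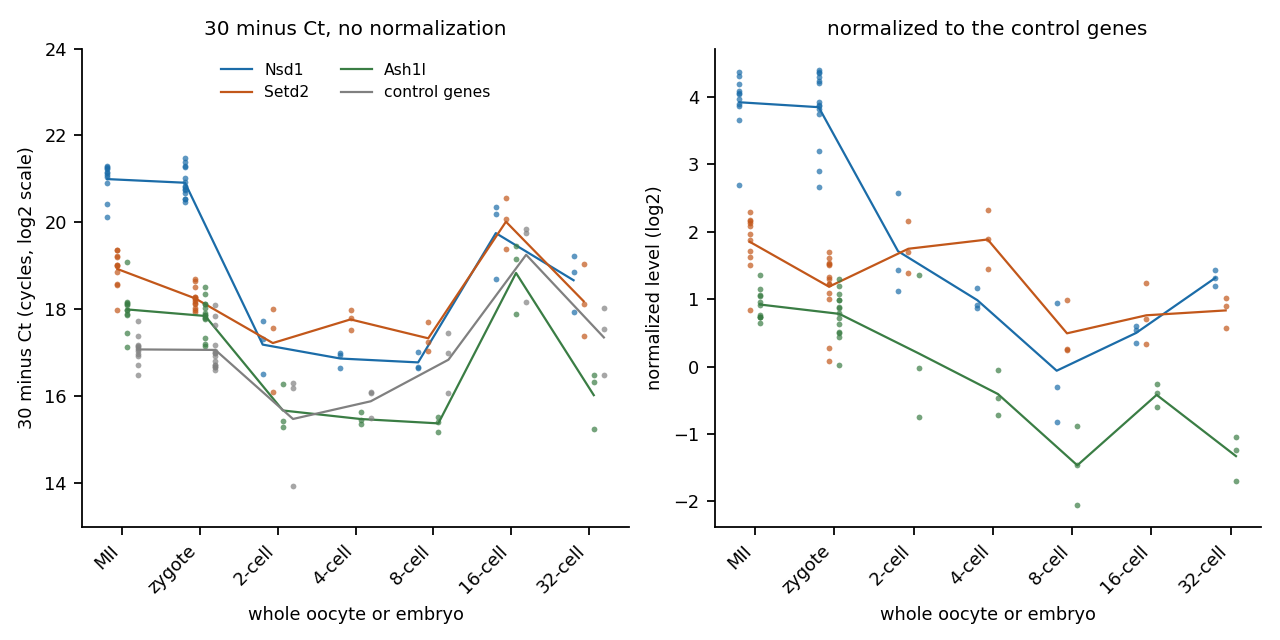
The 3 genes in whole oocytes and embryos, as 30 minus Ct without normalization together with the mean of the control genes (left, cycles) and normalized to the control genes (right, log2). Points are oocytes or embryos, lines join the stage means, and the undetected Setd2 value is left out. Without normalization the mean of Nsd1 stays between 16.8 and 17.19 in 2-cell to 8-cell embryos while that of the control genes goes from 15.5 to 16.8, and after the zygote all of them are highest in the 16-cell embryos.

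Whole embryos and separated blastomeres gave different levels of Ash1l at the 32-cell stage. The 3 whole 32-cell embryos had normalized Ash1l at −1.70, −1.24 and −1.04, below the means of the 7 embryos measured as blastomeres, which lay between 0.15 and 0.75. The difference was −1.81 ± 0.35 (SE, adjusted p = 3.32e-05) in a comparison, added after the values were seen, that called 41.7% of genes. Nsd1 was lower in whole embryos by 0.62 ± 0.33 (SE), which did not pass (adjusted p = 0.128), and Setd2 differed by 0.08 ± 1.70 (SE). At the 8-cell stage, Ash1l differed by 0.10 ± 0.39 (SE, adjusted p = 0.983) between the sample types. As a result the recovery of Ash1l from the 8-cell to the 32-cell stage was 2.05 in blastomere samples and 0.14 in whole embryos, and these changes differed by 1.91 ± 0.53 (SE, adjusted p = 0.00484), where 33.3% of genes were called. For Nsd1 the changes were 2.28 and 1.38 (difference 0.90 ± 0.50, SE, adjusted p = 0.172). In whole embryos alone, Nsd1 rose by 1.38 ± 0.43 (SE, adjusted p = 0.00662) from the 8-cell to the 32-cell stage on the normalized scale, beside 48.1% of genes. The control level, as 30 minus Ct, had a median of 12.3 in blastomere samples of the 32-cell stage and of 17.5 in the whole embryos, and of 14.6 and 17.0 at the 8-cell stage. The part of this difference in template in the result for Ash1l was not tested.

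Dilutions of RNA from embryonic stem cells (ESC), cells grown from the inner cell mass, show how the 3 assays behaved at low input. Over 25 to 200 pg of RNA, 30 minus Ct rose per doubling of RNA by 1.17 for Nsd1, 1.24 for Setd2 and 0.98 for Ash1l (4 amounts), and over 32 to 800 pg by 1.15, 0.98 and 1.39 (3 amounts). A slope of 1 would mean that each doubling of template gained 1 cycle, and the 2 series placed the assays in different orders. In 3 repeats of 200 pg, the SD of the normalized level was 0.14 for Nsd1, 0.36 for Setd2 and 0.38 for Ash1l. Over all 10 ESC samples, normalized Ash1l ran from −1.74 to 0.96, Nsd1 from 1.78 to 3.01 and Setd2 from −0.38 to 1.54.

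By the median over embryos, sister blastomeres of the 32-cell stage varied less in Nsd1 and Setd2 than in Ash1l. Over 4 32-cell embryos with at least 3 single cells each, the median SD among sisters was 0.41 for Nsd1, 0.42 for Setd2 and 0.81 for Ash1l. The SD ran from 0.27 to 0.84 for Nsd1, from 0.41 to 0.83 for Setd2 and from 0.75 to 0.90 for Ash1l. This order did not hold in every embryo. The 81 genes detected in all of these cells had a median SD of 0.73. By the median over embryos, only 1 of them varied less than Nsd1, 2 less than Setd2 and 52 less than Ash1l. Among 8-cell sisters the median SD was 0.57 for Nsd1, 0.46 for Setd2 and 0.72 for Ash1l, beside 0.51 over 109 genes. Among 16-cell sisters it was 0.50, 0.76 and 0.78, beside 0.65 over 97 genes. The 8 sisters of the first dissociated 8-cell embryo ran from −1.59 to 0.23 in Nsd1. These spreads contain measurement error, and the repeats above were made at a higher RNA amount, so they do not give the error at the level of a single cell.

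The 16- and 32-cell samples were ordered by a lineage score, the mean of 12 inner cell mass (ICM) genes minus the mean of 8 trophectoderm genes, sets that the study had chosen on these same samples. The question was whether the methyltransferases differ between the pluripotent and the trophectodermal lineage of the blastocyst. Within embryos, the mean slope of the level on the score was 0.06 ± 0.05 (SE, adjusted p = 0.584) for Nsd1, −0.07 ± 0.05 (SE, adjusted p = 0.584) for Setd2 and −0.07 ± 0.06 (SE, adjusted p = 0.584) for Ash1l over 9 embryos, so that none passed, in a test that called 0.641% of genes. That share is 1 gene, the trophectoderm gene Tspan8, and neither Sox2 nor Cdx2 passed either. Nsd1 had a positive slope in 7 of 9 embryos, Setd2 a negative slope in 8 of 9 and Ash1l a positive slope in 5 of 9. In the 3 embryos in which the score varied least, with SDs of 0.91 to 2.06, the slopes ran from −0.11 to 0.42 for Nsd1 and from −0.43 to 0.15 for Setd2. In the other 6, with SDs of 3.70 to 8.42, they ran from 0.01 to 0.08 for Nsd1 and from −0.10 to −0.03 for Setd2.

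As ranks, the mean within-embryo Spearman coefficient with the score was 0.20 for Nsd1, −0.38 for Setd2 and 0.00011 for Ash1l over the 9 embryos. By limma on these coefficients, Setd2 had an adjusted p of 0.0817 and Nsd1 of 0.443, and 25 genes passed. The genes of a sample share its control genes, its reverse transcription and its target amplification. The control level itself had a mean slope of 0.26 ± 0.70 (SD, n = 9) on the score and a positive slope in 4 of 9 embryos. The slope was 2.08 in 1 embryo, whose score had an SD of 0.91, and ran from −0.11 to 0.30 in the others. The difference between the slopes at the 16-cell and the 32-cell stage did not pass for any of the 3 (adjusted p of at least 0.954). A separated ICM and a separated trophectoderm, of 1 sample each, had Nsd1 at 1.63 and 1.36, Setd2 at 1.40 and 1.07 and Ash1l at −0.23 and −0.37. The isolates have no replicates, so these differences could not be set against a spread.

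**Figure D4:**
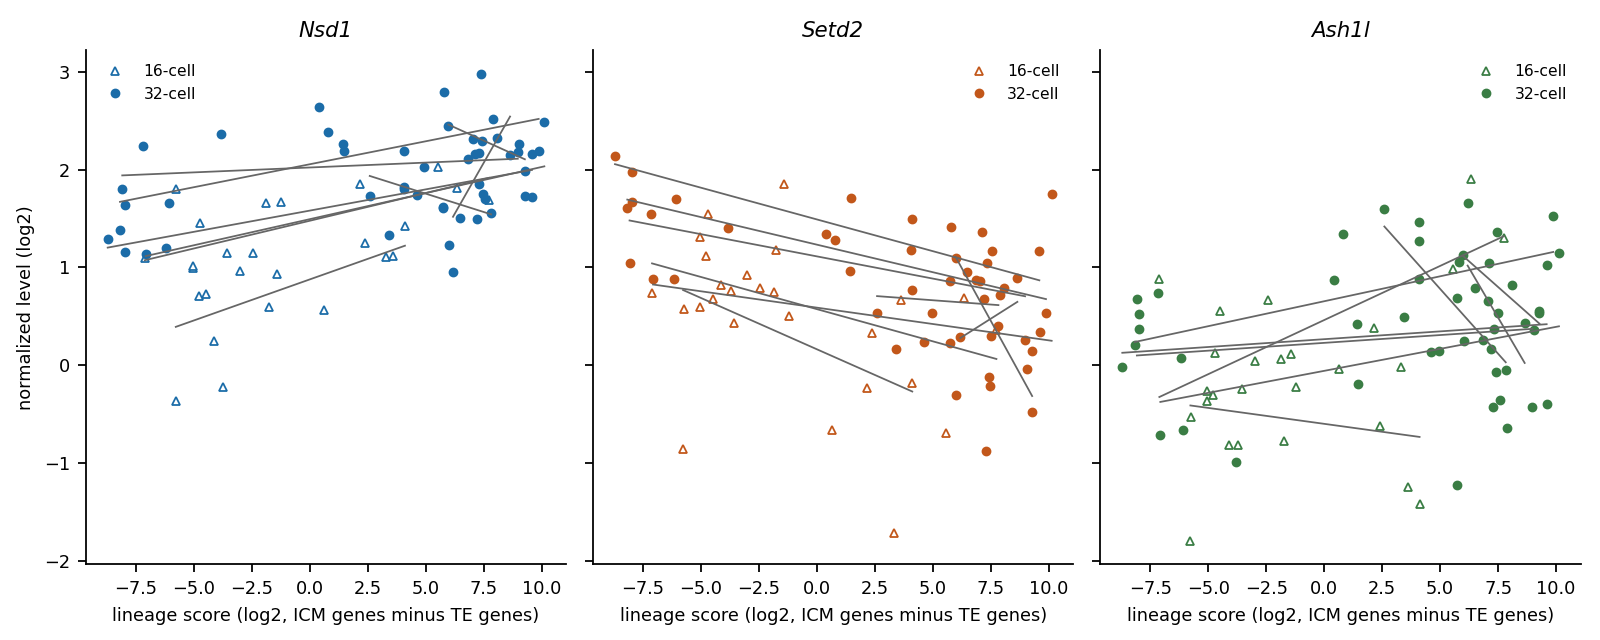
Normalized level (log2, vertical axis) of the 3 genes against the lineage score (horizontal axis) in 26 samples of the 16-cell and 50 of the 32-cell stage. Lines are least-squares fits within each of the 9 embryos. Most lines rise for Nsd1 and fall for Setd2, and the short steep ones belong to embryos in which the score varied little.

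Genes with courses most like those of the members were taken from the correlation of the 8 stage means, which rest on the same oocytes and embryos and the same control genes. Nsd1 was most like Phf19 (Pearson r = 0.98), a Polycomb-associated reader of H3K36 methylation that was undetected in 81 samples, which enter its stage means at the detection limit, then Smyd3 (0.97), Mapk3 (0.94) and Scmh1 (0.94). Ash1l was most like Prdm2 (0.97), Hells (0.95), Setd3 (0.94) and Kdm6b (0.94), the last a demethylase of H3K27. Setd2 had no close match, its highest coefficients being 0.59 for Nf2, 0.58 for Sirt1, 0.57 for Klf4 and 0.56 for Setdb2, with zygote 4 included. Between members, r was 0.93 for Nsd1 with Ash1l, −0.04 for Nsd1 with Setd2 and −0.12 for Setd2 with Ash1l. All coefficients of Setd2 rest on a zygote mean of −0.12, which is 1.18 with undetected values missing. They are not given without zygote 4, so how far it sets the lack of a match is left undecided.

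Across blastomere samples within the 9 late embryos, the highest mean Spearman coefficients were 0.53 with Pdgfra, 0.49 with Yy1, 0.48 with Mll2 and 0.48 with Phc2 for Nsd1. For Setd2 they were 0.57 with Lrpap1, 0.55 with Kdm1b, 0.53 with Gata3 and 0.52 with Id2, of which Gata3 and Id2 belong to the trophectoderm set. For Ash1l they were 0.59 with Jmjd6, 0.54 with Cbx3, 0.49 with DEK and 0.46 with Kdm1a. The median coefficient over all genes was 0.17 for Nsd1, 0.06 for Setd2 and 0.20 for Ash1l, and the members had 0.22 (Nsd1 with Ash1l), −0.05 (Nsd1 with Setd2) and 0.05 (Setd2 with Ash1l) with each other.

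The panel held 15 other genes that write, erase or bind H3K36 methylation. Of 4 further writers or proposed writers, 2 fell and none rose from MII oocytes to 16- and 32-cell embryos. That comparison called 84.0% of all 156 genes, and the one from the 8-cell embryo onwards 59.6%. Whsc1 (Nsd2) fell by 3.397 ± 0.25 (SE, adjusted p = 7.74e-18), further than Nsd1, and Whsc1l1 (Nsd3) by 0.99 ± 0.25 (SE, adjusted p = 0.000397). From the 8-cell embryo onwards 3 of the 4 rose, Whsc1 by 1.23 (adjusted p = 0.000229), Whsc1l1 by 1.04 (adjusted p = 0.00152) and Setd3 by 1.94 (adjusted p = 1.23e-07), while Smyd2, undetected in 18 samples, differed by 1.57 (adjusted p = 0.146) and rose by 2.01 (adjusted p = 1.78e-07) with undetected values missing. Mean levels of Whsc1 were 1.30 in MII oocytes, −3.33 in 8-cell embryos and −1.996 in 32-cell embryos. On this scale the 8-cell stage had the lowest mean of all 3 NSD-family genes.

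Of 7 demethylases assigned to H3K36, 4 fell and 2 rose from MII oocytes to late embryos, beside 84.0% of all genes called. Kdm4a fell by 2.07 ± 0.22 (SE, adjusted p = 1.40e-12), Kdm2b by 2.01 ± 0.24 (SE, adjusted p = 9.63e-11), Jmjd5 by 3.03 ± 0.43 (SE, adjusted p = 7.11e-09) and Kdm2a by 0.45 ± 0.21 (SE, adjusted p = 0.0414). Kdm4c rose by 4.41 ± 0.70 (SE, adjusted p = 1.07e-07) and 2410016O06Rik, the gene of the demethylase No66, by 10.5 ± 1.45 (SE, adjusted p = 3.98e-09), a value set by samples without detection, against 7.12 with undetected values missing. Both had risen by the 2-cell stage, Kdm4c from −7.58 in zygotes to 1.04. From the 8-cell embryo onwards Kdm2a rose by 0.71 (adjusted p = 0.00683) and Kdm4a by 0.79 (adjusted p = 0.00420), while Jmjd5 fell by 2.30 (adjusted p = 5.72e-05) and Kdm4c by 1.88 (adjusted p = 0.0359). Jmjd5 was undetected in 19 samples, and with undetected values missing its late differences were −0.37 (adjusted p = 0.336) from the 8-cell embryo and −1.10 (adjusted p = 0.000876) from MII oocytes. Of 4 genes whose products bind methylated H3K36, Mtf2 (2.90 ± 0.26, SE, adjusted p = 8.47e-15) and Dnmt3b (1.30 ± 0.25, SE, adjusted p = 5.40e-06) rose, Phf19 fell by 4.98 ± 0.99 (SE, adjusted p = 1.02e-05), a size set by its undetected samples and 1.06 (adjusted p = 0.0149) without them, and Dnmt3a did not pass (−0.42, adjusted p = 0.234). All 4 rose from the 8-cell embryo onwards, by 1.45 for Dnmt3a (adjusted p = 0.000955), 1.89 for Dnmt3b (adjusted p = 1.00e-07), 1.63 for Mtf2 (adjusted p = 5.02e-06) and 3.74 for Phf19 (adjusted p = 0.00324), or 2.72 for Phf19 with undetected values missing. Over the 15 genes, 4 rose and 7 fell from MII oocytes to late embryos, where 84.0% of all genes were called. The median difference was −0.53 beside −0.35 over all 156 genes. From the 8-cell embryo onwards 9 rose and 2 fell, where 59.6% were called, with a median of 1.04 beside 0.71. With undetected values missing, 5 rose and 8 fell from MII oocytes, where 85.5% of all genes were called. In that fit Kdm4b also rose (1.11, adjusted p = 4.32e-05) and Setd3 also fell (−0.53, adjusted p = 0.0489). From the 8-cell embryo onwards 11 rose and 1 fell with undetected values missing, where 68.4% of all genes were called. Smyd2 and Kdm4b (0.95, adjusted p = 0.00215) were added to those that rose. These directions are relative to Hnrnpr, Ssu72 and Ube2e1 and share the dependence on control genes described above.

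**Figure D5:**
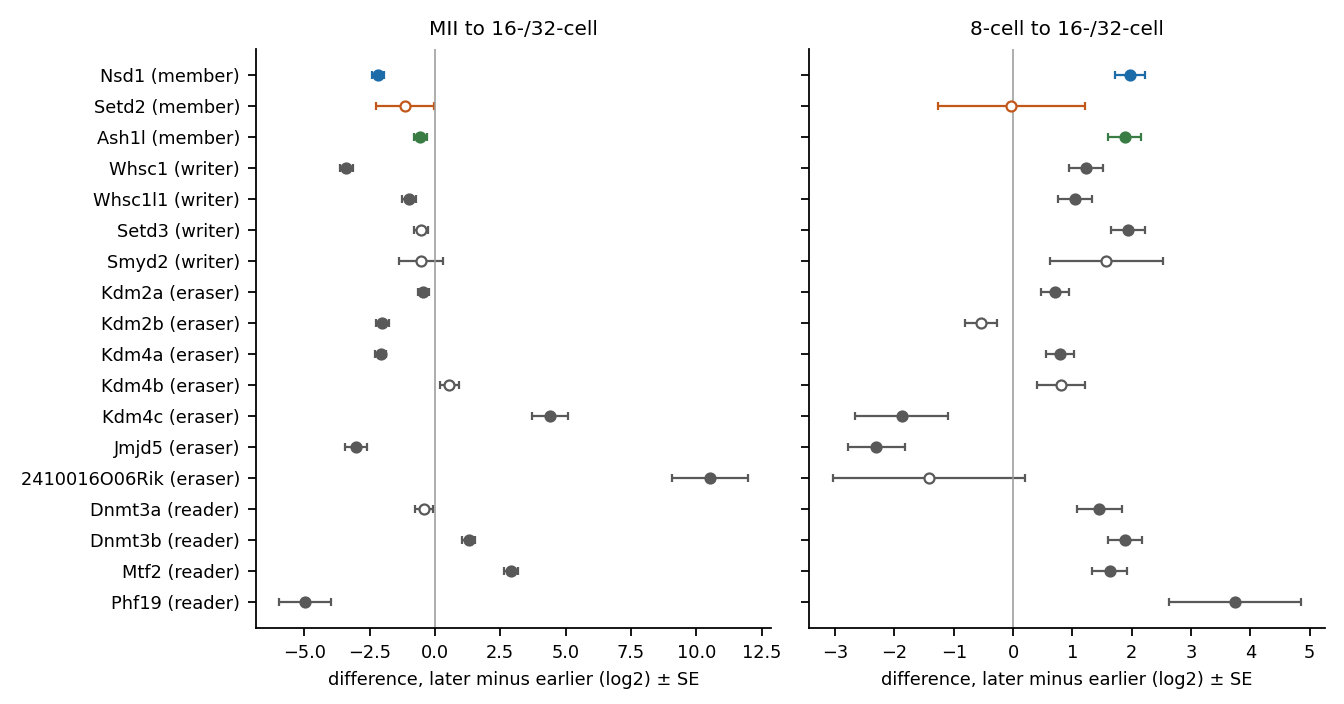
Differences (log2 ± SE, later minus earlier, horizontal axis) of the 3 methyltransferases and the 15 other H3K36 genes from MII oocytes (left) and from 8-cell embryos (right) to 16- and 32-cell embryos, with zygote 4 kept in the fit. Filled points passed an adjusted p under 0.05. On the left Nsd1 and Whsc1 lie below −2, and on the right Nsd1, Ash1l, Setd3 and Dnmt3b lie near 2.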

How the data were processed

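The authors deposited Ct values (a score in cycles, given by the BioMark software after reverse transcription and specific target amplification) of 192 assays in 189 samples, with undetected values at 30, and a normalized table in log2 units. The latter was found to use Gapdh, Hspa8 and Lmnb1 as reference genes, matching 30 minus Ct less their average to within 1.03e-08. The methods name Hnrnpr, Ssu72 and Ube2e1, so these were used here on the deposited Ct. The 156 assays that passed quality control and 168 samples were analysed, and 3 samples left out by the study entered an alternative only. Chips could not be assigned to samples. Samples of an embryo were averaged, and stages were compared over 58 oocytes or embryos with limma 3.58.1 in R 4.3.3 (lmFit, eBayes, all stages in the fit), with Benjamini-Hochberg adjustment over 156 genes and a threshold of 0.05. Nothing says that embryos came from separate matings, so p-values measure the spread between these embryos. Slopes on the lineage score were fitted per embryo and tested over embryos, with a gene left out of its own set. Scripts were tested on simulated data. Descriptions used Python 3.11.15 with numpy 2.4.6 and pandas 2.3.3.

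The members, gene lists and tests were chosen with earlier results of these data known. Named genes are the members, the control genes, the 15 other H3K36 genes of the panel, and per member the 4 genes most alike in stage means and the 4 most alike within late embryos. Tspan8, Sox2 and Cdx2 are named as checks of the lineage test. Alternatives were no normalization, each control gene left out, sample medians, the deposited normalized table, undetected values as missing or set to −10, samples in place of embryo means, with and without a block, single cells only, added whole embryos or left-out samples, and embryos left out in turn. Whole embryos only, the removal of zygotes, an oocyte and a 2-cell embryo that stood apart, the comparisons between sample types and those from the 8-cell to the late stages were added after the data were seen. Equal replicate numbers in the labels do not pair samples: over 420 pairs of equal number from 2 groups, the median correlation of deviations was −0.0074. No 2 samples held identical values.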

Additional observations from a re-analysis of the deposited data

Results flagged for a closer look

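The change of normalized Ash1l from the 8-cell to the 32-cell stage differed between sample types. It was 1.91 larger in blastomere samples than in whole embryos (limma adjusted p = 0.0048).

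Within the lineage comparison, 1 embryo stood apart from the other 8 in the slope of Nsd1, at 0.42, and another in the slope of Setd2, at −0.43. The score had an SD of 0.91 over 5 samples in the first and of 1.84 over 3 samples in the second. Of 18 groups of 4 to 10 values examined, these 2 were flagged, and about 1 in 20 is flagged by chance.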

How the results depend on the processing

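The 60 results on the members gave 840 values under the alternatives, of which 739 kept direction and side of the threshold, 19 no longer passed, 41 came to pass and 41 changed direction. Values below are log2 differences, named by gene and stages. Late means the 16- and 32-cell embryos together. The late difference of Setd2 from 8-cell embryos came to pass without normalization and with the deposited normalized values. The Nsd1 difference from 16-cell to 32-cell came to pass without Ssu72, with late whole embryos added and with the embryo as a random block. That of Ash1l changed direction and passed in whole embryos only. The 2-cell to 4-cell calls were lost in single cells only and whole embryos only for Nsd1 and Ash1l, and for Ash1l also with sample medians, without Ube2e1, with late whole embryos added and with left-out samples added. Unless said, the cause of a change was not tested.

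Without normalization, differences were −0.80 (Setd2 zygote to 2-cell), 0.54 (Ash1l 2-cell to 4-cell), 0.38 (Nsd1 2-cell to 4-cell), 1.03 (Setd2 2-cell to 4-cell), −0.85 (Nsd1 4-cell to 8-cell), 0.066 (Ash1l 8-cell to 16-cell), −0.044 (Nsd1 8-cell to 16-cell), −1.39 (Ash1l 16-cell to 32-cell), −1.13 (Nsd1 16-cell to 32-cell), −1.69 (Setd2 16-cell to 32-cell), −5.46 (Setd2 MII to late), −1.01 (Ash1l 8-cell to late), −0.92 (Nsd1 8-cell to late) and −2.92 (Setd2 8-cell to late). The slopes on the lineage score were then 0.18 for Setd2 and 0.18 for Ash1l. Without Hnrnpr as a control they were −0.47 (Ash1l zygote to 2-cell), 2.63 (Setd2 zygote to 2-cell) and −0.98 (Ash1l 4-cell to 8-cell), without Ssu72 1.18 (Nsd1 16-cell to 32-cell), −0.081 (Ash1l MII to late) and 0.24 (Setd2 8-cell to late), and without Ube2e1 0.0049 (Nsd1 MII to zygote) and −0.55 (Ash1l 2-cell to 4-cell). With sample medians they were 0.075 (Ash1l MII to zygote), 0.14 (Nsd1 MII to zygote), −0.58 (Ash1l 2-cell to 4-cell) and −0.23 (Ash1l MII to late). With the deposited normalized values they were 0.017 (Ash1l MII to zygote), 0.083 (Nsd1 MII to zygote), −0.85 (Ash1l 4-cell to 8-cell), −0.45 (Ash1l 8-cell to 16-cell), −0.56 (Nsd1 8-cell to 16-cell), −0.58 (Ash1l 16-cell to 32-cell), −0.32 (Nsd1 16-cell to 32-cell), −0.88 (Setd2 16-cell to 32-cell), −4.72 (Setd2 MII to late), −0.90 (Ash1l 8-cell to late), −0.80 (Nsd1 8-cell to late) and −2.81 (Setd2 8-cell to late).

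With undetected values missing, which removes zygote 4 from Setd2, Setd2 gave −0.67 (MII to zygote), 0.90 (zygote to 2-cell), −1.11 (4-cell to 8-cell) and −1.16 (MII to late), and per whole embryo −0.74 (MII to 32-cell), −1.03 (zygote to 2-cell) and 0.96 (2-cell to 32-cell). Nsd1 relative to Setd2 then gave −1.01 (MII to late) and 2.002 (8-cell to late), and Setd2 relative to Ash1l −1.91 (8-cell to late). With values under −10 set to −10, Setd2 gave 1.70 (zygote to 2-cell). Normalized to the control genes, whole embryos gave −1.52 (Ash1l), −0.40 (Nsd1) and −0.91 (Setd2) from 2-cell to 32-cell. As ranks, the lineage value of Ash1l was 0.00011.

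With every sample as a replicate, differences were 2.33 (Setd2 zygote to 2-cell), 0.52 (Ash1l 16-cell to 32-cell), 0.83 (Nsd1 16-cell to 32-cell), −1.15 (Setd2 MII to late), 2.09 (Nsd1 relative to Setd2, 8-cell to late), 0.0065 (Nsd1 relative to Ash1l, 8-cell to 16-cell) and −1.88 (Setd2 relative to Ash1l, 8-cell to late). Samples of an embryo are not independent, so these p-values are too small. With the embryo as a random block they were 2.27 (Setd2 zygote to 2-cell), 0.83 (Nsd1 16-cell to 32-cell) and −1.14 (Setd2 MII to late). With a replicate block, by numbers that do not pair the samples, they were 2.35, 0.80 and −1.27 in the same order. In single cells only they were −1.0006 (Ash1l 2-cell to 4-cell) and −0.83 (Nsd1 2-cell to 4-cell). With late whole embryos added they were −0.74 (Ash1l 2-cell to 4-cell), 1.01 (Nsd1 16-cell to 32-cell) and 0.013 (Setd2 8-cell to late), and with the left-out samples added −0.74 (Ash1l 2-cell to 4-cell) and 0.0299 (Setd2 8-cell to late).

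Among the alternatives added after the data were seen, whole embryos only gave −0.60 (Ash1l 2-cell to 4-cell), −0.73 (Nsd1 2-cell to 4-cell), 0.14 (Setd2 2-cell to 4-cell), −1.06 (Ash1l 4-cell to 8-cell), 0.56 (Nsd1 8-cell to 16-cell), 0.27 (Setd2 8-cell to 16-cell), −0.91 (Ash1l 16-cell to 32-cell), 0.59 (Ash1l 8-cell to late) and 0.30 (Setd2 8-cell to late). Without the 4 oocytes and zygotes that stood apart, values were 0.057 (Nsd1 MII to zygote) and −0.52 (Ash1l MII to late).

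Leaving out 1 3-cell or 16-cell embryo at a time, a lone 16-cell embryo being assumed to vary like the other groups, gave 0.97 to 1.89 (Ash1l 8-cell to 16-cell), 0.98 to 1.65 (Nsd1 8-cell to 16-cell), −0.56 to −0.45 (Ash1l MII to late), −0.0299 to 0.017 (Setd2 8-cell to late), −0.23 to 0.014 (Nsd1 relative to Ash1l, 8-cell to 16-cell) and −0.66 throughout (Ash1l 4-cell to 8-cell, which passed without the first 3-cell embryo). The call on Ash1l from MII to late was lost without the first 16-cell embryo, and those from 8-cell to 16-cell without the second. Leaving out 1 whole embryo at a time gave −0.11 to 0.84 (Setd2 per whole embryo, zygote to 2-cell), lowest without the first 2-cell embryo. With undetected values missing, Setd2 without the third whole 2-cell embryo, left out after the data were seen, gave −0.47 (zygote to 2-cell) and 0.40 (2-cell to 32-cell), neither of which passed.

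Over the alternatives, limma called up to 14 genes from MII to zygote, 2 to 66 from 2-cell to 4-cell, 42 to 84 from 4-cell to 8-cell, 16 to 85 from 8-cell to 16-cell, 6 to 75 from 16-cell to 32-cell and up to 25 for the lineage score, beside 3, 51, 77, 44, 17 and 1 as reported. Each value is 1 reaction per sample and gene, and the 16-cell stage rests on 2 embryos and the whole embryos on 3 per stage.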

Other observations

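Left out by the study, 3 samples had late control genes for their groups. In MII oocyte 8, with a control Ct of 15.1, normalized Nsd1 was 4.78, Setd2 0.68 and Ash1l 1.40. In 32-cell blastomere 23, with a control Ct of 22.7, Nsd1 was 5.43, Setd2 2.86 and Ash1l 5.25. In 32-cell blastomere 39, with a control Ct of 20.9, Nsd1 was 2.79, Setd2 1.68 and Ash1l 1.94. All 3 genes were detected in each of them.

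Among 3-cell blastomeres, Setd2 was −1.59 in blastomere 4, beside 1.53 and 1.69 in the other samples of its embryo.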
